A study of Mus musculus with 11 samples.

Results

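The genes *Fgr*, *Lyn*, *Syk*, *Lcp2*, *Plcg2*, *Vav1*, *Rac2*, *Ptpn6* and *Inpp5d*, which carry signals from immunoreceptors on leukocytes, were followed through skin and small intestine (SI) of mice with psoriatic skin inflammation. They are 9 of the 45777 genes in the expression table and were taken by gene symbol, from a list drawn up with the response of these genes to imiquimod (IMQ) already known. Their changes with IMQ are therefore described with a standard error and without a test. Tests were kept for the comparison of the tissues in vehicle-treated mice and for genes outside the list. The lists of those other genes were also chosen with earlier results of these data known.

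The mice were female or male BALB/c animals. From 8 to 10 weeks of age 62.5 mg of cream per day was spread over a shaved area of the back and over the right ear, for 5 to 8 days. The paper differs in that it names the shaved back alone and a slightly shorter longest treatment. Treated mice received Aldara, a cream with 5% IMQ, an agonist of Toll-like receptor 7, and control mice received Vaseline as vehicle. Bulk RNA sequencing covered 3 vehicle and 3 IMQ skin libraries and 3 vehicle and 2 IMQ SI libraries, with 44995414 to 58526384 counted reads each. The sources used here do not say which sex, treatment length or animal each library came from, so the spread between libraries may be partly technical and skin and SI libraries could not be paired.

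In leukocytes, a receptor with an immunoreceptor tyrosine-based activation motif (ITAM) is phosphorylated by Src-family kinases, and the phosphorylated motif recruits and activates SYK. SYK phosphorylates the adaptor SLP-76, around which phospholipase C-gamma, VAV and RAC are assembled, so that calcium release, actin remodelling and the NADPH oxidase burst follow. Receptors with an inhibitory motif recruit SHP-1 and SHIP1 instead, and LYN serves both arms because it also phosphorylates inhibitory motifs. These genes are expressed mostly in blood-derived cells, and most of them have a widely expressed paralog.

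The 9 genes lie on 8 chromosomes (GRCm38, RefSeq). *Fgr* spans chr4:132974095-133001893, *Lyn* chr4:3678068-3791612, *Syk* chr13:52582610-52648792, *Lcp2* chr11:34046928-34092281, *Plcg2* chr8:117498275-117635142, *Vav1* chr17:57279100-57329236 and *Inpp5d* chr1:87620312-87720510 on the forward strand, and *Ptpn6* chr6:124720707-124738709 and *Rac2* chr15:78559169-78572783 on the reverse strand. Exons of *Lyn*, *Lcp2* and *Ptpn6* share 248, 282 and 195 bases with a gene annotated on the opposite strand, and whether reads were counted by strand is not given in the sources used here. For *Lcp2* the overlapping gene, 4930469K13Rik, reached at most 0.112 FPKM in any library.

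Because the genes moved together, their promoters were searched for the PU box, the core letters GAGGAA (or TTCCTC on the other strand) read by the myeloid and B-cell factor PU.1. The RefSeq table of GRCm38.p6 promoters, from 250 bases before to 50 bases after each start, held 8 promoters of 7 of these genes and none for *Lyn* and *Rac2*. The PU box was found in 5 of the 8 and in 28.3% of all 32851 promoters of that length. The longer form GAGGAAGT, which contains it, was found in *Vav1* and *Inpp5d* and in 3.2% of all promoters, while TATAAA was found in 0 of the 8 and in 13.6% of all. The 2 promoters with the longer form are shown, with that of *Syk*, which also has a sense-strand match just before its start, and that of *Fgr*, the gene with the greatest change in the SI. Capitals mark the PU box on either strand. A match of letters is a description and was not tested as a binding site.
*Vav1*, chr17:57278850-57279149, forward strand: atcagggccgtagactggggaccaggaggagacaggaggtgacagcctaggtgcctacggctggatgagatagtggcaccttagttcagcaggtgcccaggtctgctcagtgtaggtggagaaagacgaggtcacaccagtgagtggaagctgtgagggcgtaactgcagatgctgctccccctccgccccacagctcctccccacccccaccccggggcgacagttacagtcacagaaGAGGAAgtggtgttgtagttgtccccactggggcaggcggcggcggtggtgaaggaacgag
*Inpp5d*, chr1:87620062-87620361, forward strand: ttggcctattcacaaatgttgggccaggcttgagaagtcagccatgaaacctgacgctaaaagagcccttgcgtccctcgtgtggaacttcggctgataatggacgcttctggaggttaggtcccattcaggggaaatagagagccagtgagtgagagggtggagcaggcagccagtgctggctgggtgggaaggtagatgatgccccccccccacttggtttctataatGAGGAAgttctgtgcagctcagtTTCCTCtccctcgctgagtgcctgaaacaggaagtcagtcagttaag
*Syk*, second annotated start, chr13:52596632-52596931, forward strand: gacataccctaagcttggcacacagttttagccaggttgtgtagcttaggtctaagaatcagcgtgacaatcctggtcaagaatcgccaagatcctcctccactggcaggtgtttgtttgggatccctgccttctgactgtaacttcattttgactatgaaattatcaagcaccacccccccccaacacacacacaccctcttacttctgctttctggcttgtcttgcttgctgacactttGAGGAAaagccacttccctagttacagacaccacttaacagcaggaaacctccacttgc
*Fgr*, chr4:132973845-132974144, forward strand: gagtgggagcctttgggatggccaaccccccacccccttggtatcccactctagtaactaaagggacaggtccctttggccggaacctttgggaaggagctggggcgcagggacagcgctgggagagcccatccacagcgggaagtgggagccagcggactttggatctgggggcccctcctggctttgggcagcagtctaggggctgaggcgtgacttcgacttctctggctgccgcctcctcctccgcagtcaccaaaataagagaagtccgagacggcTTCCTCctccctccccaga
The first base of the match lay 11 bases before the start in *Vav1*, 9 before in *Syk*, and 20 before and 3 after in *Inpp5d*, the latter on the other strand. In *Fgr* it lay 31 bases after the start on the other strand. *Lcp2*, not shown, had a match 4 bases after the start. The *Plcg2* and *Ptpn6* windows and that of the first annotated start of *Syk* (chr13:52583187-52583486) had none.

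Levels are given as FPKM, read fragments scaled to transcript length and library size, which allows genes of different length to be compared, and folds come from the read counts. Tissue markers matched the labels, with 1 exception. Markers of SI epithelium summed to 149 FPKM in vehicle skin replicate 2, against at most 3.70 in the other 5 skin libraries and at least 6759 in the SI. A difference between bulk samples does not tell apart more cells that express a gene from more RNA per cell.

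All 9 genes stood higher with IMQ in both tissues. The log2 fold changes ranged from 0.60 (*Plcg2*) to 2.37 (*Rac2*) in skin, with a median of 1.79, and from 1.03 (*Plcg2*) to 3.47 (*Fgr*) in the SI, with a median of 2.13, while the medians over all genes were -0.01 and -0.02. Every IMQ library lay above every vehicle library for 9 of 9 genes in each tissue, an order that 15.1% of genes showed in skin and 15.1% in the SI. This order follows from how the genes were chosen and supports nothing by itself.

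**Figure D1:**
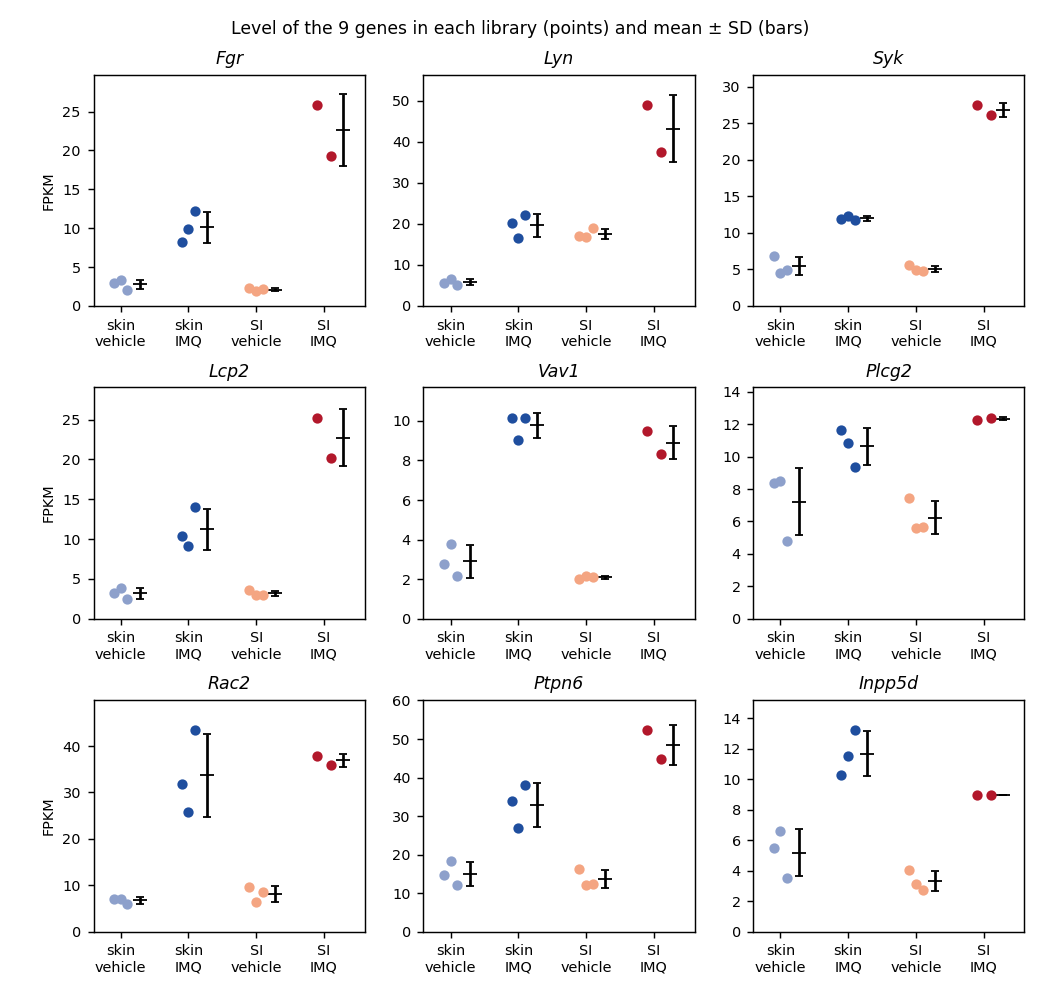
FPKM (vertical axis, linear from 0, a separate scale per gene) of the 9 genes in the 11 libraries, grouped along the horizontal axis by tissue and treatment. Points are libraries and bars are mean ± SD. In each tissue every IMQ point lies above every vehicle point, and *Lyn* is the gene whose SI vehicle points (16.9 to 19.0 FPKM) lie far above its skin vehicle points (5.22 to 6.55 FPKM).

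*Fgr*, a Src-family kinase of myeloid cells that acts downstream of integrins and Fc receptors, had the greatest change in the SI. In skin it was measured at 2.90, 3.28 and 2.11 FPKM with vehicle and at 8.26, 9.88 and 12.2 FPKM with IMQ. In the SI it was measured at 2.25, 1.90 and 2.12 FPKM with vehicle and at 25.9 and 19.3 FPKM with IMQ. The vehicle levels of the tissues were close and the IMQ levels were not, with the lower SI library above the highest skin library. The log2 fold change was 1.90 ± 0.23 (SE) in skin and 3.47 ± 0.16 in the SI, which is 3.73-fold and 11.1-fold.

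*Lyn*, which phosphorylates both activating and inhibitory receptors, started from a high level in the SI. Its vehicle skin libraries stood at 5.62, 6.55 and 5.22 FPKM and its IMQ skin libraries at 20.1, 16.6 and 22.1 FPKM. Vehicle SI libraries stood at 17.0, 16.9 and 19.0 FPKM and IMQ SI libraries at 49.0 and 37.4 FPKM. Vehicle SI thus overlapped the range of IMQ skin. The log2 fold change was 1.80 ± 0.16 in skin and 1.33 ± 0.15 in the SI, so *Lyn* and *Rac2* were the members with the smaller estimate in the SI. The ratio of *Lyn* to *Fgr* FPKM was 2.14 ± 0.30 (SD, n = 3) in vehicle skin, 1.98 ± 0.40 (n = 3) in IMQ skin and 1.91 ± 0.03 (n = 2) in IMQ SI, but 8.47 ± 0.79 (n = 3) in vehicle SI.

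*Syk*, the kinase that reads phosphorylated ITAMs, was measured at 6.82, 4.46 and 4.97 FPKM in vehicle skin and at 11.96, 12.3 and 11.7 FPKM in IMQ skin. In the SI it was measured at 5.58, 4.88 and 4.80 FPKM with vehicle and at 27.6 and 26.2 FPKM with IMQ. The vehicle ranges of the tissues overlapped, and both IMQ SI libraries lay above all IMQ skin libraries. Its log2 fold change was 1.30 ± 0.16 in skin and 2.48 ± 0.14 in the SI. Its estimate in skin without vehicle replicate 2 was 1.21 ± 0.17.

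*Lcp2* encodes SLP-76, the scaffold that SYK phosphorylates. Vehicle skin stood at 3.23, 3.88 and 2.43 FPKM and IMQ skin at 10.4, 9.18 and 14.1 FPKM. Vehicle SI stood at 3.59, 2.98 and 3.01 FPKM and IMQ SI at 25.2 and 20.2 FPKM. As for *Fgr*, the vehicle ranges of the tissues overlapped and the IMQ ranges did not. The change was 1.86 ± 0.24 on the log2 scale in skin and 2.87 ± 0.15 in the SI.

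*Plcg2*, the phospholipase C-gamma of myeloid and B cells, changed least in both tissues. It was measured at 8.37, 8.47 and 4.82 FPKM in vehicle skin and at 11.7, 10.8 and 9.37 FPKM in IMQ skin. SI values were 7.43, 5.62 and 5.65 FPKM with vehicle and 12.3 and 12.4 FPKM with IMQ. The groups did not overlap, but in skin the lowest IMQ and the highest vehicle library were close. The log2 fold change was 0.60 ± 0.25 in skin and 1.03 ± 0.17 in the SI. With each skin library left out in turn the skin estimate ran from 0.36 to 0.78.

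*Vav1*, the exchange factor that loads Rac proteins with GTP, and *Rac2*, the Rac of blood cells and a component of the phagocyte oxidase, had similar folds in both tissues. *Vav1* stood at 2.76, 3.78 and 2.15 FPKM in vehicle skin and 10.2, 9.02 and 10.1 FPKM in IMQ skin. It stood at 2.03, 2.16 and 2.09 FPKM in vehicle SI and 9.49 and 8.30 FPKM in IMQ SI. Its change was 1.79 ± 0.24 in skin and 2.13 ± 0.13 in the SI. *Rac2* was measured at 7.12, 7.11 and 5.93 FPKM in vehicle skin and at 31.9, 25.8 and 43.4 FPKM in IMQ skin. In vehicle SI it was measured at 9.57, 6.29 and 8.55 FPKM, and in IMQ SI at 37.9 and 36.0 FPKM. For both genes the FPKM ranges of IMQ skin and IMQ SI overlapped. The log2 fold change of *Rac2* was 2.37 ± 0.21 in skin, the highest of the set there, and 2.22 ± 0.21 in the SI.

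The phosphatases of the inhibitory arm stood higher as well. *Ptpn6*, the tyrosine phosphatase SHP-1, had the highest level of the set in every vehicle skin library, at 14.6, 18.2 and 12.02 FPKM, and stood at 33.9, 26.8 and 38.2 FPKM in IMQ skin. In the SI it was measured at 16.3, 12.1 and 12.5 FPKM with vehicle and at 52.2 and 44.9 FPKM with IMQ. This was a log2 fold change of 1.18 ± 0.21 in skin and 1.86 ± 0.18 in the SI. *Inpp5d*, the lipid phosphatase SHIP1 that removes the 5-phosphate from the product of PI3-kinase, stood at 5.50, 6.58 and 3.50 FPKM in vehicle skin and at 10.3, 11.6 and 13.2 FPKM in IMQ skin. It stood at 4.07, 3.16 and 2.75 FPKM in vehicle SI and at 8.99 and 8.95 FPKM in IMQ SI, so the groups did not overlap in either tissue. On the log2 scale the change was 1.21 ± 0.25 in skin and 1.47 ± 0.18 in the SI.

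**Figure D2:**
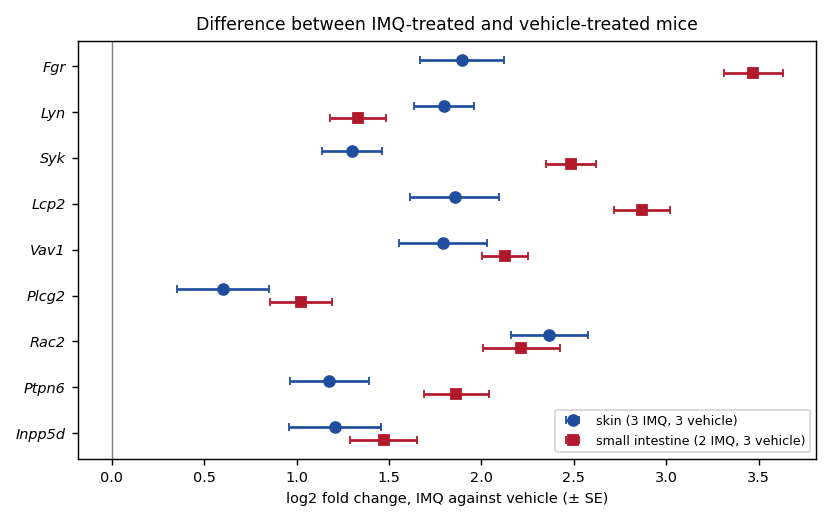
Log2 fold change of IMQ against vehicle (horizontal axis) for the 9 genes (vertical axis), in skin (circles, 3 against 3 libraries) and in the SI (squares, 2 against 3), with bars of 1 SE from edgeR. All 18 points lie right of 0, *Plcg2* is lowest in both tissues, and *Fgr*, *Syk* and *Lcp2* show the widest gaps between the tissues, with the SI higher.

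The SI response minus the skin response was 1.58 ± 0.31 (SE) on the log2 scale for *Fgr*, 1.19 ± 0.21 for *Syk* and 1.02 ± 0.32 for *Lcp2*. It was 0.70 ± 0.31 for *Ptpn6*, 0.43 ± 0.35 for *Plcg2*, 0.35 ± 0.30 for *Vav1* and 0.28 ± 0.36 for *Inpp5d*. For *Rac2* it was -0.14 ± 0.32 and for *Lyn* -0.46 ± 0.24. Over all genes 2.55% passed the edgeR test of such a difference. For the 9 genes it uses the contrasts they were chosen on and carries no test. Leaving out each of the 11 libraries kept the sign for 7 of the genes, and *Rac2* (-0.33 to 0.05) and *Inpp5d* (-0.0034 to 0.53) crossed 0. Without vehicle skin replicate 2 the skin log2 fold changes of 8 genes were higher, for example 2.09 ± 0.22 for *Fgr* and 2.08 ± 0.16 for *Vav1*, and only that of *Syk* was lower.

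The order of the levels differed between groups. In vehicle skin *Ptpn6* led at 15.0 ± 3.13 FPKM (mean ± SD, n = 3) and no other neighbours in the order were separate, down to *Fgr* at 2.76 ± 0.60. In vehicle SI *Lyn* led at 17.6 ± 1.19, above *Ptpn6* at 13.6 ± 2.36 and *Rac2* at 8.14 ± 1.68 in all 3 libraries. IMQ skin was led by *Rac2* (33.7 ± 8.91) and *Ptpn6* (33.0 ± 5.72), which overlapped, followed by *Lyn* (19.6 ± 2.79), which did not overlap with either neighbour. In IMQ SI (n = 2) *Ptpn6* (48.5 ± 5.19), *Lyn* (43.2 ± 8.21) and *Rac2* (37.0 ± 1.39) formed the top, and *Inpp5d* (8.97 ± 0.03) and *Vav1* (8.90 ± 0.84) the bottom without separating. *Fgr* and *Vav1* had the lowest means of both vehicle groups without separating, and in IMQ SI *Fgr* (22.6 ± 4.63) overlapped with *Lcp2* (22.7 ± 3.56) and lay above *Plcg2* (12.3 ± 0.10).

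The levels of general leukocyte genes differed between groups too. The summed FPKM of 5 pan-leukocyte genes (*Ptprc*, *Cd53*, *Laptm5*, *Lcp1*, *Cytip*) was 77.6 to 113 in vehicle skin and 192 to 263 in IMQ skin, and 58.7 to 71.7 in vehicle SI and 218 to 246 in IMQ SI. All 5 rose in skin and 4 of 5 in the SI. Set against this sum, the 9 genes parted. *Ptpn6* had close percentages with vehicle and IMQ, at 15.3 ± 0.95 and 15.2 ± 2.24 (SD) in vehicle and IMQ skin and 20.6 ± 2.20 and 20.9 ± 0.44 in the SI. *Fgr* went from 2.82 ± 0.10 to 4.62 ± 0.30 in skin and from 3.16 ± 0.06 to 9.71 ± 1.16 in the SI, and *Lcp2* from 3.25 ± 0.17 to 5.13 ± 0.48 and from 4.83 ± 0.35 to 9.78 ± 0.70. *Rac2* went from 6.98 ± 0.67 to 15.3 ± 2.16 in skin and from 12.2 ± 1.36 to 16.0 ± 0.78 in the SI. *Plcg2* had a lower percentage with IMQ, 7.31 ± 1.0 against 5.02 ± 1.30 in skin and 9.42 ± 1.03 against 5.35 ± 0.50 in the SI. *Lyn* had 6.01 ± 0.64 against 9.06 ± 1.24 in skin but 26.8 ± 2.72 against 18.6 ± 1.95 in the SI. *Syk* was unequal between the tissues, at 5.68 ± 1.5 and 5.61 ± 1.0 in skin but 7.72 ± 0.62 and 11.6 ± 0.57 in the SI. *Vav1* went from 2.94 ± 0.36 to 4.55 ± 0.73 in skin and from 3.20 ± 0.43 to 3.84 ± 0.03 in the SI. *Inpp5d* had 5.24 ± 0.68 and 5.39 ± 0.36 in skin and 5.04 ± 0.86 and 3.88 ± 0.32 in the SI, and its vehicle and IMQ libraries overlapped in both tissues.

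**Figure D3:**
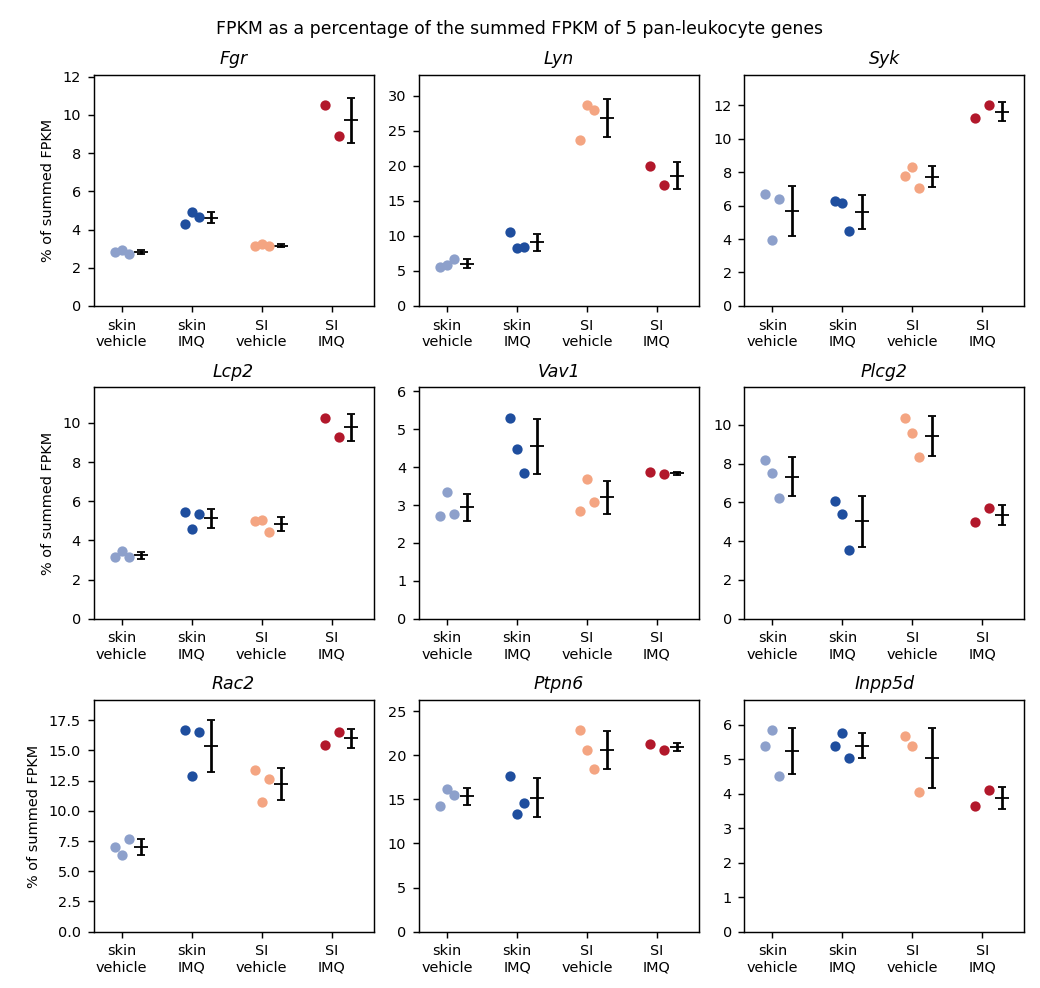
FPKM of each of the 9 genes as a percentage of the summed FPKM of the 5 pan-leukocyte genes in the same library (vertical axis, linear from 0, separate scales), by tissue and treatment. Points are libraries and bars mean ± SD. The IMQ points of *Fgr*, *Lcp2*, *Rac2* and *Vav1* lie above the vehicle points in both tissues, those of *Plcg2* lie below in both, and those of *Lyn* lie above in skin and below in the SI.

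The kinds of leukocyte whose markers moved were not the same in the tissues. Summed markers of neutrophils were 13.6 to 14.7 FPKM in vehicle skin and 7036 to 8588 in IMQ skin. In IMQ skin nearly all of the sum was *S100a8* and *S100a9*, which keratinocytes can also express. In the SI the sums were 7.17 to 8.13 and 14.9 to 15.5, and by edgeR 2 of 5 tested markers rose and 0 fell. *Csf3r* stood at 0.633 to 1.02 FPKM in vehicle SI and at 6.97 to 7.80 FPKM in IMQ SI. *Cxcr2* was at most 0.0875 FPKM in any SI library. Most of the vehicle SI sum was *Retnlg*, at 5.90 to 7.10 FPKM with vehicle and 6.28 and 5.34 FPKM with IMQ. *Ly6g* was at most 0.066 FPKM in vehicle SI and at 0 in both IMQ SI libraries, but it was also at most 0.173 FPKM in IMQ skin. Monocyte and macrophage markers were 311 to 435 and 606 to 838 FPKM in vehicle and IMQ skin, and 162 to 205 and 242 to 255 in the SI. Most of each sum was *Lyz2*, which stood at 118 to 148 and 128 to 143 FPKM in vehicle and IMQ SI. Gene by gene, 4 of 7 rose in skin and 3 of 7 in the SI and 0 fell by edgeR, with median log2 fold changes of 0.88 and 1.25. Dendritic cell markers were 7.87 to 14.4 and 12.3 to 17.4 in skin and 10.4 to 11.7 and 56.0 to 77.5 in the SI, mostly through *Itgax*. Mast cell markers were 117 to 139 and 198 to 236 in skin and 5.21 to 14.05 and 6.39 to 7.26 in the SI. B cell markers were at most 0.441 in any skin library and were 8.67 to 16.9 and 7.51 to 8.34 in the SI. Plasma cell markers were 62.7 to 81.5 and 86.7 to 87.8 in skin and 559 to 851 and 421 to 480 in the SI. Most of the skin sum was *Xbp1* (61.3 to 73.8 with vehicle and 84.4 to 86.0 with IMQ). By edgeR 0 of 3 tested plasma cell markers passed in skin, where their median log2 fold change was -0.53. T cell markers were 13.1 to 26.6 and 22.7 to 71.9 in skin and 18.8 to 27.5 and 15.3 to 16.3 in the SI. The value of 71.9 was IMQ skin replicate 6, and replicate 5 had 36.5. By edgeR 0 of 5 T cell markers passed in each tissue. In the SI 0 of 5 mast cell, 0 of 5 B cell and 0 of 4 plasma cell markers passed. Mast cell markers rose in 3 of 5 in skin, and dendritic cell markers in 1 of 5 in skin and 3 of 5 in the SI. The eosinophil markers summed to at most 3.32 in any library, and by edgeR 0 of 2 tested passed in skin and 0 of 4 in the SI. *Epx* was at most 0.164 FPKM in any library. It was at 0 in vehicle skin replicates 1 and 2 and vehicle SI replicate 9 as well as in every IMQ library. The part of these cells in the changes of the 9 genes was not tested.

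In vehicle-treated mice, a comparison on which the genes were not chosen, *Lyn* was higher in the SI than in skin. The difference was 2.05 ± 0.16 (SE) on the log2 scale, with a 95% interval of 1.68 to 2.41 and an edgeR adjusted p of 1.55e-06, a 4.13-fold higher level. It passed in all 8 alternative analyses and with each of the 11 libraries left out. Such a difference is common between these tissues, since 57.0% of 18108 genes passed in either direction and 28.2% were higher in the SI. *Rac2* (0.73 ± 0.22, adjusted p = 0.0138) and *Syk* (0.47 ± 0.14, adjusted p = 0.0161) passed as well on read counts scaled by relative log expression. On deposited FPKM they did not, at 0.26 (adjusted p = 0.278) and -0.07 (adjusted p = 0.707, limma), while *Inpp5d* was lower in the SI by that scale alone (-0.61, adjusted p = 0.0359). The FPKM scale moves the median of all genes to -0.45, and splits the calls over all genes into 3196 higher and 8330 lower in the SI, against 5111 and 5210 on counts. *Lyn* stood at 1.60 ± 0.15 on that scale.

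For the other 6 genes a difference between the tissues was not detected with edgeR. The estimates and their 95% intervals were 0.44 (-0.03 to 0.92) for *Lcp2*, 0.31 (-0.16 to 0.77) for *Ptpn6*, 0.23 (-0.28 to 0.75) for *Plcg2*, 0.03 (-0.43 to 0.49) for *Fgr*, -0.03 (-0.49 to 0.42) for *Vav1* and -0.20 (-0.73 to 0.33) for *Inpp5d*. Without vehicle skin replicate 2, the library with SI epithelial transcripts, *Lcp2* (0.68, adjusted p = 0.0143) and *Ptpn6* (0.54, adjusted p = 0.0335) passed and *Syk* (0.39, adjusted p = 0.0508) did not. *Rac2* and *Syk* also missed the threshold without vehicle skin replicate 3 (adjusted p = 0.0547 and 0.0622) or vehicle SI replicate 7 (adjusted p = 0.0557 and 0.0634). In an edgeR fit of the 6 vehicle libraries alone *Rac2* passed (adjusted p = 0.0234) and *Syk* did not (0.47, adjusted p = 0.0544).

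**Figure D4:**
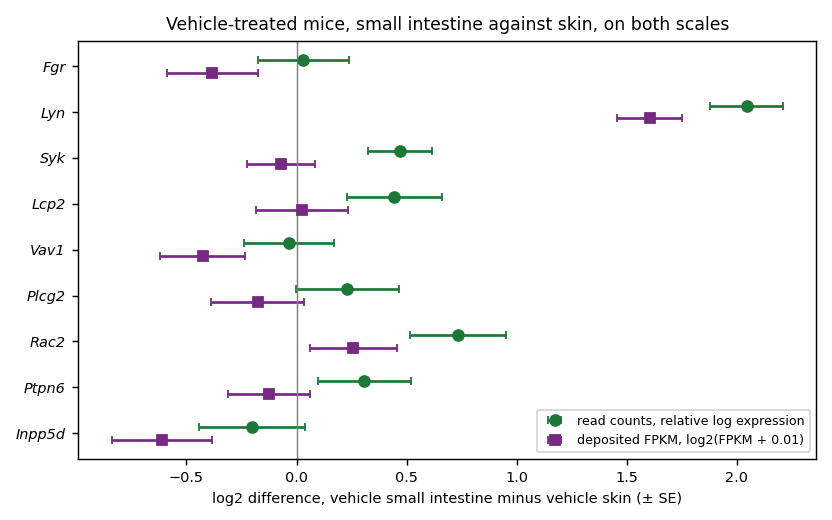
Log2 difference of vehicle SI minus vehicle skin (horizontal axis) for the 9 genes, from read counts with relative log expression (circles) and from deposited FPKM (squares), with bars of 1 SE. *Lyn* lies near 2.05 and 1.60, apart from the other genes, and the FPKM estimates of all 9 genes lie to the left of the count estimates.

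The paralogs of the 9 genes had median changes near 0. Of 15 paralogs tested, 3 rose in skin and 1 in the SI and none fell in either by edgeR at an adjusted p of 0.05, with medians of -0.10 and 0.12 on the log2 scale. Over all genes, 4.05% of 20512 rose and 2.69% fell in skin, and 2.77% of 19965 rose and 0.170% fell in the SI. *Rac1*, which is used by nearly every cell, stood at 117 FPKM in vehicle skin and 140 FPKM in IMQ skin (log2 fold change 0.30 ± 0.13, adjusted p = 0.231), and its SI estimate was 0.02 ± 0.18. The ratio of *Rac2* to *Rac1* FPKM was 0.058 ± 0.013 in vehicle and 0.24 ± 0.05 in IMQ skin, and 0.059 ± 0.015 and 0.27 ± 0.004 in the SI. *Ptpn11*, the SHP-2 phosphatase, had -0.10 ± 0.11 in skin and -0.03 ± 0.12 in the SI. The ratio of *Ptpn6* to *Ptpn11* passed from below to above 1, from 0.56 ± 0.12 to 1.37 ± 0.28 in skin and from 0.81 ± 0.14 to 3.04 ± 0.23 in the SI. *Plcg1* (-0.12 ± 0.17 and 0.04 ± 0.15), *Inppl1* (-0.17 ± 0.10 and 0.14 ± 0.14) and *Blnk* (0.30 ± 0.26 and 0.12 ± 0.23) did not pass in skin or the SI. The ratio of *Lcp2* to *Blnk* was 0.23 ± 0.03 and 0.68 ± 0.27 in skin, and 0.26 ± 0.04 and 1.74 ± 0.37 in the SI.

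Among the Src-family paralogs, *Fyn* and *Blk* each rose in 1 of the tissues. *Src*, the leading paralog of vehicle SI at 30.5 FPKM, had 0.23 ± 0.18 there and -0.11 ± 0.15 in skin. *Fyn*, the leading paralog of vehicle skin at 14.6 FPKM, had -0.13 ± 0.15 in skin and rose in the SI by 1.23 ± 0.13 (adjusted p = 0.00266). *Blk*, a kinase of B cells and gamma-delta T cells, rose in skin by 5.10 ± 0.49 (adjusted p = 0.0042), from 0.26 ± 0.04 to 8.91 ± 5.72 FPKM (SD, n = 3), and stood at 0.41 and 0.48 FPKM in vehicle and IMQ SI. *Zap70*, the *Syk* paralog of T and NK cells, rose in skin by 1.94 ± 0.43 (adjusted p = 0.0447), with an SI estimate of -0.07 ± 0.23. The ratio of *Syk* to *Zap70* was 2.77 ± 0.26 in vehicle SI and 15.4 ± 1.57 in IMQ SI. *Vav3* rose in skin by 1.05 ± 0.14 (adjusted p = 0.0107), and *Vav2*, the leading Vav of vehicle SI at 15.1 FPKM, had 0.37 ± 0.13 in skin and 0.29 ± 0.15 in the SI. The calls in skin of *Zap70* and *Vav3* were lost without vehicle replicate 1 or IMQ replicate 5, and that of *Zap70* also without vehicle replicate 3 or IMQ replicate 4 or 6 (adjusted p up to 0.146 for *Zap70* and 0.0594 for *Vav3*).

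**Figure D5:**
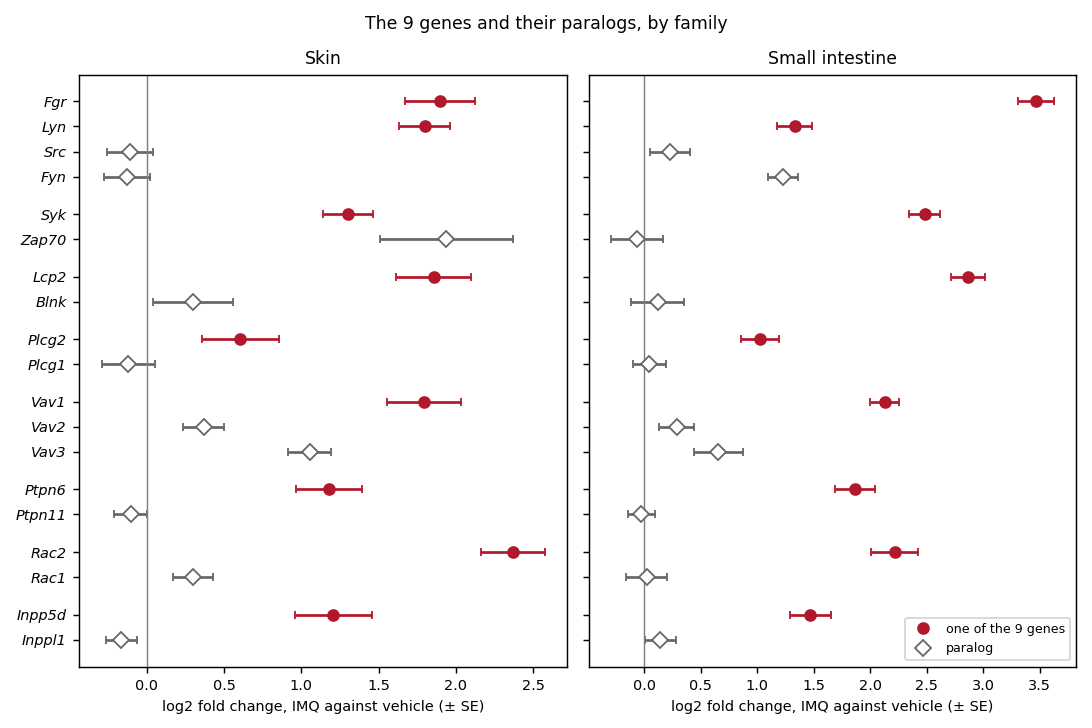
Log2 fold change of IMQ against vehicle (horizontal axis, ± SE) in skin (left) and SI (right) for the 9 genes (filled circles) and the paralogs described (open diamonds), grouped by family, without *Blk*, whose skin value of 5.10 would set the scale. *Zap70* and *Vav3* lie right of 0 in skin and *Fyn* in the SI, and the diamonds of *Src*, *Plcg1*, *Ptpn11*, *Rac1*, *Blnk* and *Inppl1* lie between -0.17 and 0.30 in both panels.

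The wider pathway was examined through 127 further genes of receptors, kinases, adaptors and effectors. Their lists were chosen with earlier results of these data known. The counts set beside the shares of all genes are therefore a description and no independent support. In skin 53 of 123 tested rose and 0 fell by edgeR at an adjusted p of 0.05, against 4.05% of all genes upward and 2.69% downward, with a median log2 fold change of 0.90. In the SI 51 of 121 rose and 1 fell, against 2.77% upward and 0.170% downward, with a median of 0.60. DESeq2 gave 72 higher and 1 lower in skin and 64 and 3 in the SI. The skin count rested on few libraries, with 29 rises without vehicle replicate 1, 26 without IMQ replicate 5 and 59 (with 2 falls) without vehicle replicate 2.

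Upstream of the kinases, ITAM chains rose in 3 of 8 tested genes in skin and 2 of 9 in the SI, with medians of 1.43 and -0.19. *Fcer1g*, the common chain of Fc receptors, rose by 1.96 ± 0.16 in skin (adjusted p = 0.00262) and 3.47 ± 0.22 in the SI (adjusted p = 0.000379). *Tyrobp* (DAP12) rose by 1.53 ± 0.15 in skin and 2.0 ± 0.21 in the SI. *Cd79b*, of the B-cell receptor, rose by 3.42 ± 0.43 in skin and did not pass in the SI (1.20 ± 0.27, adjusted p = 0.0765). *Cd79a*, of the same receptor, was not tested in skin, where it stood at 0.108 FPKM with vehicle and 0.117 FPKM with IMQ. Of the activating receptors, 8 of 15 rose in skin and 5 of 12 in the SI. *Fcgr4*, a receptor for IgG, went from 2.76 to 29.2 FPKM in skin (3.43 ± 0.50) and from 5.92 to 238 FPKM in the SI (5.36 ± 0.23). *Itgb2*, the beta-2 integrin chain, rose by 1.86 ± 0.22 in skin and 3.43 ± 0.21 in the SI. *Clec4e* rose in skin by 3.81 ± 0.39. The gene that fell in the SI was the receptor *Clec5a*, named after its value was seen (-2.07 ± 0.34, adjusted p = 0.0224), at 0.35 FPKM with vehicle and 0.078 FPKM with IMQ, and its call was lost without vehicle SI replicate 9 or either IMQ SI replicate (adjusted p up to 0.180).

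Inhibitory receptors, which recruit the products of *Ptpn6* and *Inpp5d*, held the largest share of rises among lists of over 5 genes, with 14 of 17 in skin and 13 of 17 in the SI and medians of 1.93 and 2.31. *Siglece*, a sialic acid receptor of myeloid cells, rose by 4.34 ± 0.22 in skin (adjusted p = 0.000549) and 4.81 ± 0.17 in the SI (adjusted p = 8.12e-05). *Cd300lf* rose by 3.70 ± 0.29 in skin and 2.72 ± 0.18 in the SI, and *Cd72* by 2.63 ± 0.27 in skin and 4.40 ± 0.20 in the SI. With any skin library left out, at least 11 of the 17 passed in skin. The list of other negative regulators rose in 5 of 16 genes in skin, led by *Dok3* (1.86 ± 0.12) and *Sla* (1.64 ± 0.19). In the SI 7 of 16 rose, led by *Ptpn22* (2.06 ± 0.20) and *Sla* (2.04 ± 0.12). The rises of both tissues included *Ptprc* (edgeR adjusted p = 0.0445 in skin and 0.00124 in the SI). Fits of *Ptprc* with single libraries left out are not given here, and the statements below on such fits do not cover it. The product of *Ptprc*, CD45, lies on the cell surface and is not only a negative regulator, and the gene is also among the pan-leukocyte genes.

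Of the remaining kinases of the pathway, paralogs included, 2 of 12 rose in each tissue, *Blk* and *Zap70* in skin and *Fyn* and *Btk* in the SI, and *Btk*, which activates the product of *Plcg2*, rose in the SI by 1.58 ± 0.22 (adjusted p = 0.0108). Adaptors rose in 5 of 17 genes in each tissue, with *Pik3ap1* at 2.72 ± 0.25 in skin and 3.05 ± 0.18 in the SI. *Fyb*, an SLP-76 partner, rose by 2.54 ± 0.20 in skin and 2.40 ± 0.17 in the SI. *Grap2*, another, rose by 2.62 ± 0.22 in the SI and did not pass in skin (0.90 ± 0.33, adjusted p = 0.166). Lipid enzymes and their targets rose in 4 of 16 genes in skin, with *Pik3r5* at 1.83 ± 0.29 and *Pik3cd* at 1.17 ± 0.19, and in 7 of 16 in the SI, with *Prkcb* at 3.12 ± 0.17 and *Pik3r5* at 2.33 ± 0.23. Rac and actin genes rose in 8 of 18 in each tissue. *Was* (1.38 ± 0.21) and *Coro1a* (1.31 ± 0.22) led in skin, and *Nckap1l* (2.07 ± 0.14) and *Arhgdib* (1.84 ± 0.16) in the SI. The phagocyte NADPH oxidase, which RAC2 activates, rose in 4 of 4 genes in skin, led by *Ncf4* (1.68 ± 0.17) and *Cybb* (1.49 ± 0.25). In the SI 2 of 4 rose, *Cybb* (2.09 ± 0.14) and *Cyba* (0.66 ± 0.12). *Ncf4* (1.30 ± 0.30, edgeR adjusted p = 0.0827) and *Ncf1* (0.98 ± 0.21, adjusted p = 0.0677) had larger SI estimates than *Cyba* and did not pass.

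The counts of single lists depended on the libraries and the tool. In skin, without vehicle replicate 2, the library with SI epithelial transcripts, 8 of the lipid enzyme list rose, 8 adaptors rose and 1 fell, 1 negative regulator fell, and the kinases that rose numbered 3, with *Btk* (1.40, adjusted p = 0.0116) among them. Without vehicle replicate 1 or IMQ replicate 5 the Rac and actin list and the lipid enzyme list had 0 calls, the negative regulators 2 and the kinases 1, the oxidase list had 2 and 1, and the activating receptors had 4 without IMQ replicate 5. Without IMQ replicate 4 or 6 the lipid enzyme list had 0 and 1, the Rac and actin list 5, the negative regulators 3, the oxidase list 2 and the kinases 1. The negative regulators also had 3 and the kinases 1 without vehicle replicate 3. In the SI, without IMQ replicate 10, the lipid enzyme list and the negative regulators had 4 rises each, the adaptors and the activating receptors 3 each and the kinases 1. Without IMQ replicate 11 the activating receptors had 3 and the kinases 1, without vehicle replicate 8 the activating receptors had 3, and the oxidase list had 1 with any SI library other than vehicle replicate 7 left out. DESeq2 called 7 of the 8 ITAM chains, 5 kinases and 8 of the lipid enzyme list higher in skin, and 9 adaptors and 4 of 4 oxidase genes in the SI.

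The calls in skin of *Fcgr4*, *Was* and *Coro1a* were lost without vehicle replicate 1 or IMQ replicate 5 (adjusted p up to 0.0576, 0.0750 and 0.0875), and those of *Cybb*, *Pik3r5* and *Pik3cd* also without IMQ replicate 4 or 6 (adjusted p up to 0.0748, 0.0794 and 0.0712). In the SI, *Btk* was lost without either IMQ replicate (adjusted p up to 0.0940), *Cyba* was lost with each of the 5 libraries left out in turn (adjusted p up to 0.262), and the other genes named with a rise in the SI passed with each library left out.

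Across the 11 libraries the 9 profiles ran close to each other. Over the 36 pairs, Pearson's r of log2 normalized counts had a median of 0.90, was highest for *Lcp2* with *Ptpn6* (0.99) and lowest for *Lyn* with *Inpp5d* (0.53). These values rest on the same 4 groups and are given as a description. Among 15041 other genes, the profile most like *Fgr* was that of *Itgb2* (r = 0.996), which was also the fourth nearest to the mean of the 9. *Hcls1*, a substrate of these kinases, was nearest to both *Lcp2* (0.993) and *Ptpn6* (0.983). *Lyn* was nearest to *Lair1* (0.992), *Syk* to *Themis2* (0.985), *Vav1* to *Fpr2* (0.993), *Rac2* to *Lst1* (0.989) and *Inpp5d* to *Vsir* (0.991). *Plcg2* had the weakest best match, *Grk2* (0.959). *Cd300a* (0.991), *Hcls1* (0.990) and *Cd300c2* (0.986) were closest to the mean of the 9.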

How the data were processed

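RNA was taken from skin and small intestine of BALB/c mice treated with IMQ or vehicle. Per the submitters' processing notes, reads were converted with bcl2fastq 2.20.0, trimmed with Trimmomatic, aligned to mm10 with HISAT2 2.1.0 and assembled with StringTie 2.1.3b. The authors deposited, for each gene and library, a read count, an FPKM and a TPM. The deposited counts were used for tests and the deposited FPKM for levels, and the deposited TPM was not used. The library kit was a stranded one, and the strand setting of the counting is not given in the sources used here.

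Counts were scaled by relative log expression and tested with edgeR 4.0.16 (glmQLFit, glmQLFTest) in R 4.3.3 on genes with at least 1 count in every library of the fit, with p-values adjusted by Benjamini-Hochberg across the whole table and a threshold of 0.05. Skin and SI were fitted separately. The vehicle tissue contrast and the difference of the responses came from a fit of all 11 libraries. Alternatives used DESeq2 1.42.0, limma 3.58.1, other filters and scalings, and log2(FPKM + 0.01) and log2(FPKM + 1), where a fold understates the change of low genes. The scripts were tested on simulated data. The members, lists and tests were chosen with earlier results of these data known.

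The genes named are the 9 members, the paralogs with the highest vehicle level in each family, in each pathway list the 2 passing genes with the greatest change per tissue, the genes whose profiles were most like a member's (Pearson's r of log2(normalized count + 1), genes with a mean of at least 50), and markers beside a result. Some genes of the lists are not reported here and are left out of their counts.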

Additional observations from a re-analysis of the deposited data

Results flagged for a closer look

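The response to IMQ differed between SI and skin for 7 of 37 tested genes among those named outside the set of 9, by the interaction term of edgeR over 11 libraries, while 2.55% of 18108 genes passed that test. Most of these genes were named for their change within a tissue, so the test is not independent of how they were picked. Over all 119 pathway genes tested, the SI response was higher for 7 and lower for 3. The SI response was higher by 2.0 ± 0.41 (SE, log2) for *Prkcb* (adjusted p = 0.0309), 1.78 ± 0.37 for *Cd72* (adjusted p = 0.0325), 1.58 ± 0.34 for *Itgb2* (adjusted p = 0.0384), 1.51 ± 0.29 for *Fcer1g* (adjusted p = 0.0222) and 1.36 ± 0.20 for *Fyn* (adjusted p = 0.00666). It was lower, at -4.88 ± 0.86 for *Blk* (adjusted p = 0.0153) and -2.76 ± 0.35 for *Clec5a* (adjusted p = 0.00371). *Fyn* and *Clec5a* passed with each of the 11 libraries left out and in all 7 alternative analyses, *Blk* with 9 of 11 left out (adjusted p up to 0.0908, lost without either IMQ SI library), and the other 4 with 3 to 5 of 11 (adjusted p up to 0.139 for *Cd72*). Of the 7 alternative analyses *Fcer1g* passed in 7, *Blk* in 6, and *Prkcb*, *Cd72* and *Itgb2* in 5. No group held enough libraries for a search for single outlying ones.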

How the results depend on the processing

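The counts of genes past the threshold depended on the tool and on the libraries. In skin 1382 genes passed with edgeR, 3030 with DESeq2, 894 with limma on log2(FPKM + 1), and 258 to 2521 with each library left out. In the SI 588 passed, 1206 with DESeq2 and 294 to 801 with each library left out. For the difference of the responses 462 passed, 1281 with DESeq2, 301 without a filter on low counts, and 144 to 1072 with each library left out. The share of higher calls in skin was 830 of 1382, 1514 of 3030 with DESeq2 and 902 of 1846 in a fit of all 11 libraries. The vehicle tissue count of 10321 stayed within 1.5 times under every alternative. The cause of these shifts was not tested. Among the pathway lists, a fit of all 11 libraries called 4 kinases and 7 lipid enzyme genes in skin. Without a filter on low counts 1 kinase and 3 negative regulators passed in skin and 1 oxidase gene in the SI. On log2(FPKM + 1) 1 kinase passed in skin, 3 activating receptors and 1 oxidase gene passed in the SI on both FPKM scales, and 4 negative regulators on log2(FPKM + 0.01).

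The members' IMQ fold changes kept their direction under every alternative. In the vehicle tissue contrast, estimates near 0 changed sign. *Fgr* was -0.039 with TMM, -0.38 on log2(FPKM + 0.01) and -0.27 on log2(FPKM + 1), *Syk* -0.070 and -0.061, *Plcg2* -0.18 and -0.16 and *Ptpn6* -0.13 and -0.12 on these FPKM scales, and *Vav1* 0.049 with limma-voom. With each library left out *Fgr* ran from -0.17 to 0.24, *Plcg2* from -0.025 to 0.43, *Vav1* from -0.25 to 0.28 and *Inpp5d* from -0.46 to 0.075. Among paralogs, in tissues where they were not called, *Rac1* in the SI was -0.00852 and -0.00851 on the FPKM scales. With each library left out, skin ran from -0.25 to 0.022 for *Plcg1* and from -0.21 to 0.032 for *Src*, and the SI from -0.15 to 1.07 for *Blk*, -0.015 to 0.38 for *Blnk*, -0.046 to 0.12 for *Plcg1*, -0.064 to 0.0035 for *Ptpn11*, -0.057 to 0.17 for *Rac1* and -0.18 to 0.0067 for *Zap70*. Where a group kept 1 IMQ SI library, it was assumed to vary like the others. No paired analysis was possible because the labels number the libraries 1 to 11 and the groups share no number.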
